A study of Mus musculus with 34 samples.

Results

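Sites bound by Foxp3, BATF and IRF4 were defined as Foxp3 ChIP-seq peaks that overlap, by 1 bp or more, both a BATF peak and an IRF4 peak. They numbered 2143 of the 6396 Foxp3 peaks (33.5%) and are called triple sites here. The peaks were called by the authors in CD4 T cells taken from the spleen and lymph nodes of mice on the C57BL6/J strain, all carrying a Foxp3 allele linked through an IRES to human CD2 (Foxp3-IRES-hCD2), so that surface hCD2 marks cells expressing that allele. Of the 34 samples, 24 were immunoprecipitations of 1 of the 3 factors and are used here, while the 10 input samples are not used here. BATF was measured in WT Treg cells (CD4+hCD2+) and in WT Tconv cells (CD4+hCD2-), with 2 libraries each. IRF4 was measured in the same 2 cell types, with 4 libraries each.

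Foxp3 was measured in 4 groups of Treg cells, with 2 libraries each. Treg cells of Foxp3-IRES-hCD2.Batf-/- mice (Batf KO) were set against WT Treg cells. Effector Treg cells (eTreg, sorted as CD4+hCD2+CCR7loCD62Llo) were set against central Treg cells (cTreg, sorted as CD4+hCD2+CCR7hiCD62LhiCD44lo). BATF was measured a second time, in a separate table, in R397W Treg cells and their controls, with 2 libraries each. The mice of the R397W group had 1 Foxp3R397W-IRES-hCD2 allele and 1 Foxp3-IRES-GFP allele, and the sort (CD4+hCD2+GFP-) took cells with the reporter of the mutant allele and without that of the other. The control mice had Foxp3WT-IRES-hCD2 in place of the mutant allele. The Batf deletion of the KO mice is germline by its label, so it is not limited to Treg cells.

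Foxp3 is the forkhead transcription factor that defines regulatory T cells, which restrain immune responses. BATF is an AP-1 family protein that binds DNA as a heterodimer with a JUN protein, while IRF4, of the interferon regulatory factor family, binds weakly alone and joins BATF and JUN at composite elements in activated lymphocytes. BATF and IRF4 are both known to be needed for Treg cells of the effector type, which leave lymphoid organs and act in tissues.

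Sequence could be read at triple sites that lie on a gene start, from the RefSeq promoter windows of GRCm38.p6, which run from 250 bases before to 50 bases after a start. The windows of 5 of the promoter sites whose values are given at the end are printed, all chosen after their values were seen. They are 3 of those with Foxp3 or BATF differences in effector or R397W cells (Tigit, Cxcl10, Dclk1), 1 with less Foxp3 in Batf KO cells (Gm15133, whose site is nearest to Trim12a) and 1 with no difference called (Map1lc3b). Foxp3 was higher in eTreg cells at 7 promoter sites and lower at 11, and no window of the latter is printed. Capitals mark matches to the AP-1 motif TGANTCA or the IRF motif GAAANNGAAA, searched on both strands.
Tigit, chr16:43664135-43664434, minus strand: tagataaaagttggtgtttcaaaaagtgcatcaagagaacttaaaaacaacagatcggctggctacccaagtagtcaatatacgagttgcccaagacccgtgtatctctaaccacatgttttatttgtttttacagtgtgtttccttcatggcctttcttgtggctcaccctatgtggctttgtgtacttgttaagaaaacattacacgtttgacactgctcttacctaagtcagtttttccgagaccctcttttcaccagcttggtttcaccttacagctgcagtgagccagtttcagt
Cxcl10, chr5:92348840-92349139, minus strand: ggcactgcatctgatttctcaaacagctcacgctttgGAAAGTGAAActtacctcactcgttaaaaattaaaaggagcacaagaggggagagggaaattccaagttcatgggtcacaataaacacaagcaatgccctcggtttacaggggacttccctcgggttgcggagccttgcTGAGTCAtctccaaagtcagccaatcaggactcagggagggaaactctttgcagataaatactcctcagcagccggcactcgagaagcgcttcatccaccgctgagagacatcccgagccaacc
Dclk1, chr3:55461478-55461777, plus strand: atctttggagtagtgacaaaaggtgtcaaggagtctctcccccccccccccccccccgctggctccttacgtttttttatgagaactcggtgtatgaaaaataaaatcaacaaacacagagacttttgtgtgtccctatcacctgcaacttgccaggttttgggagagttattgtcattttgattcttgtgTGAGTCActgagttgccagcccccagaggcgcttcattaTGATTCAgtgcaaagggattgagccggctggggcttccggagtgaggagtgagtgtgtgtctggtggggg
Gm15133, chr7:104314781-104315080, plus strand: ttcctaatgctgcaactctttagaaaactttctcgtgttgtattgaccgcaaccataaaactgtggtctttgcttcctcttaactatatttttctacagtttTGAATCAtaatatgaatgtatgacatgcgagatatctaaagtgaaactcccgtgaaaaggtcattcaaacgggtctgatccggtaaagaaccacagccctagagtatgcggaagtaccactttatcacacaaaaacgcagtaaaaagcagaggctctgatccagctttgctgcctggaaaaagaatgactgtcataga
Map1lc3b, chr8:121590188-121590487, plus strand: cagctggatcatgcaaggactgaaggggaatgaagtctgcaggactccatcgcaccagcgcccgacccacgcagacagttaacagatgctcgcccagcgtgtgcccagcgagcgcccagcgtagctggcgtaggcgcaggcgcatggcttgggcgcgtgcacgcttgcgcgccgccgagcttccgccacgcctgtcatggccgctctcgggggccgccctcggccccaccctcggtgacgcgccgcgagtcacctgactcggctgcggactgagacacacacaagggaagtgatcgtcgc
The Cxcl10 window holds 1 AP-1 and 1 IRF match, the Dclk1 window 2 AP-1 matches and the Gm15133 window 1 AP-1 match. The Tigit and Map1lc3b windows hold neither motif, which says only that these letters are not in these windows.

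The 3 factors lay close together at triple sites. The median overlap of the Foxp3 peak was 374 bp with the BATF peak and 374 bp with the IRF4 peak, and 2141 of the 2143 Foxp3 peaks were 400 bp long. The centre of the Foxp3 peak lay a median of 26 bp from the BATF centre and 26 bp from the IRF4 centre, and the BATF and IRF4 centres lay 22 bp apart. The BATF offset was 27 bp at Foxp3 peaks without IRF4, and the IRF4 offset was 30 bp at those without BATF. Closeness was thus not particular to triple sites, and the required overlap itself limits how far apart the centres can lie. An overlap of at least 200 bp with both factors was met by 2077 of the sites. IRF4 peaks lay on 69.6% of the 3081 Foxp3 peaks that had a BATF peak and on 12.0% of the 3315 that had none. Seen from IRF4, 84.3% of the 2541 Foxp3 peaks with an IRF4 peak also had a BATF peak. Foxp3 peaks with BATF and without IRF4 numbered 938, those with IRF4 and without BATF 398, and those with neither 2917.

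Triple sites were spread over many genes. A protein-coding gene body lay within 100000 bp of 2005 sites (93.6%), and 1335 sites (62.3%) lay inside one, against 75.4% of the 4253 other Foxp3 peaks. Outside chromosome 18, for which no gene starts from the promoter table were used, 401 sites (19.4%) lay within 1000 bp of a RefSeq gene start, against 7.62% of the other Foxp3 peaks; neither difference was tested. The sites fell to 1476 nearest genes, of which 1137 had 1 site. The largest number at 1 gene was 7, reached by Bach2, Hivep2, Chd7, Inpp4b, Sgms1, Acoxl and Wwox. The nearest gene need not be the gene a site regulates, and coordinates are given as deposited (mm10), with the counting base of the start not settled.

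The deposited values are normalised peak scores, in which every value was a whole number of reads times 1 fixed step per library. Reads in peaks ranged from 144319, in control column 2 of the R397W comparison, to 2280493 per library; total depth is not known. Differences were tested with limma on log2(value + 1) over every peak of a table, a call being a Benjamini-Hochberg adjusted p under 0.05, and log2 differences below are on that scale. Nothing in the labels says that libraries of 1 group came from separate animals, so the p-values measure the spread between these libraries. Many sites below are named for a call, so non-overlapping libraries at them follow largely from that choice and are no added support. Medians over called sites come from the libraries that gave the calls, so their gaps can overstate the difference. In these bulk samples, fewer cells with a bound site and less binding per cell cannot be told apart. The Foxp3 peaks come from Treg libraries only, so no Tconv value of Foxp3 exists here. Triple sites were thus picked through Treg signal, while the BATF and IRF4 tables also hold Tconv libraries. All peaks of those tables are therefore not a neutral baseline for Treg over Tconv. How much this selection adds to the share of sites higher in Treg cells was not tested.

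Triple sites held more of the Foxp3 reads than their number. In Batf KO Treg libraries 51.0% and 50.2% of the reads in Foxp3 peaks lay at triple sites, against 52.3% and 53.7% in WT Treg libraries, where the sites are 33.5% of the peaks. The sorted subsets gave 41.9% and 43.5% in eTreg and 41.8% and 42.0% in cTreg libraries. The eTreg and cTreg libraries all lay below the unsplit Treg libraries. For BATF, the peaks at triple sites (13.3% of the first BATF table) took 16.6% and 16.1% of the reads in Treg libraries and 12.4% and 12.5% in Tconv libraries. For IRF4 (23.5% of peaks) the share was 29.6%, 31.2%, 31.8% and 31.5% in Treg libraries and 27.1%, 28.3%, 27.5% and 28.8% in Tconv libraries. In the second BATF table the share was 17.2% and 17.4% in R397W libraries and 19.9% and 21.0% in control libraries. For BATF and IRF4, no Treg library overlapped with a Tconv library, and no R397W library overlapped with a control library.

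**Figure D1:**
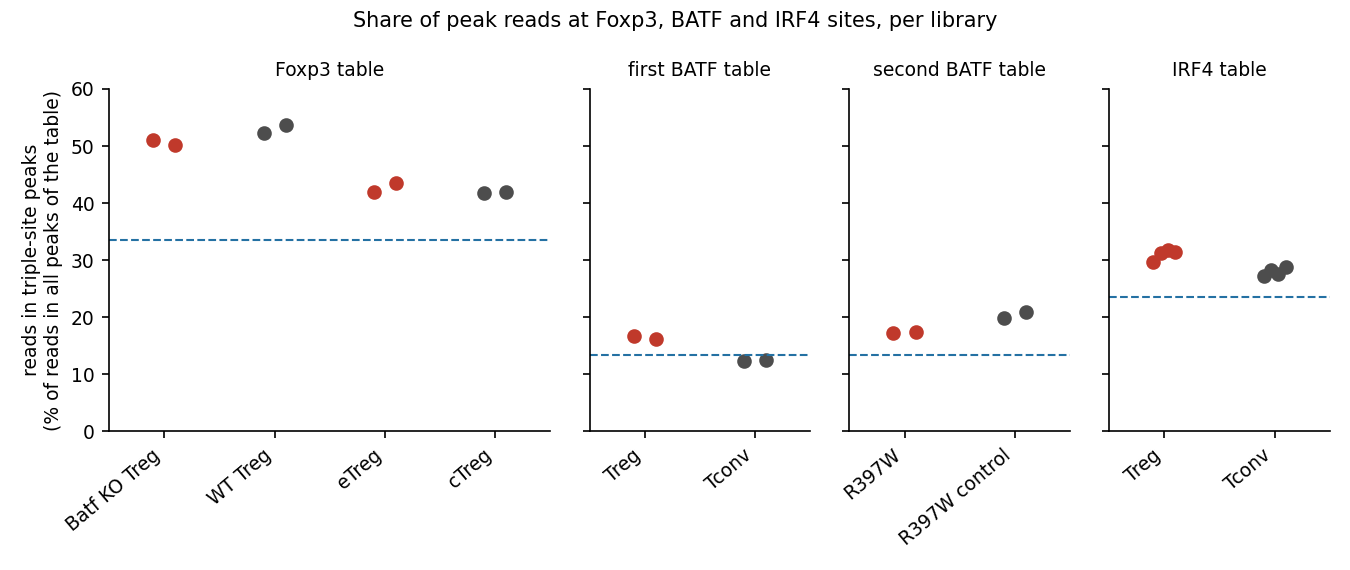
Share of the reads in all peaks of a table that fell in triple-site peaks (y axis, %), 1 point per library, by group; the dashed line is the share of the table's peaks that are triple-site peaks. Treg libraries lie above Tconv libraries for BATF (16.6% and 16.1% against 12.4% and 12.5%) and R397W libraries below their controls (17.2% and 17.4% against 19.9% and 21.0%).

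BATF was higher in Treg than in Tconv cells at 794 triple sites (37.1%) and lower at 94 (4.39%). Over all 16109 peaks of that table the call rates were 14.9% higher and 4.79% lower, a baseline not picked through Treg signal as the triple sites were. The median log2 difference was 0.34 over the triple sites and -0.03 over all peaks. Foxp3 peaks with BATF and without IRF4 were called higher in 18.4% and lower in 6.29%, and BATF peaks without Foxp3 in 11.0% and 4.75%; differences between such classes of peaks were not tested, here or in the other comparisons. The median BATF value over triple sites was 110.3 in Treg and 78.3 in Tconv cells. The lower count was 56 without Tconv library 2 and 60 with no trend of the spread in the fit.

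The site inside Foxp3 itself (chrX:7583928-7584328) was nearly empty of BATF and IRF4 outside Treg cells. Its BATF value was 115 and 108 in Treg libraries, against 3.48 and 0 in Tconv libraries, the first of which rests on 3 reads. IRF4 there was 99.5, 80.9, 86.5 and 86.9 in Treg libraries, against 2.42, 0, 0 and 2.29 in Tconv libraries. No libraries overlapped for either factor, with fitted log2 differences of 5.73 ± 0.70 (SE, adjusted p = 1.82e-05) and 5.61 ± 0.47 (adjusted p = 3.58e-08); with so few Tconv reads these depend on the pseudocount and are no bound.

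Ctla4, which encodes an inhibitory receptor carried by Treg cells, had more BATF in both Treg libraries but was not empty in Tconv cells. At chr1:60913269-60913669, inside the gene, BATF was 692 and 474 in Treg libraries and 113 and 100 in Tconv libraries (log2 difference 2.42 ± 0.20, adjusted p = 5.84e-07). Ikzf2 encodes Helios, a zinc finger protein of Treg cells. At its site inside the gene (chr1:69544231-69544631) BATF was 599 and 447 in Treg and 43 and 46.4 in Tconv libraries (log2 difference 3.51 ± 0.21, adjusted p = 4.48e-08). Il2ra, the high-affinity subunit of the IL-2 receptor, had 202 and 191 in Treg and 49.9 and 55 in Tconv libraries at chr2:11651528-11651928 (log2 difference 1.89, adjusted p = 1.44e-05). The Treg libraries of these 3 sites all lay above the Tconv libraries.

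IRF4 was higher in Treg than in Tconv cells at 443 triple sites (20.7%) and lower at 184 (8.59%), against 15.8% higher and 8.39% lower over all 9134 IRF4 peaks. The median log2 difference was 0.08 over triple sites and -0.05 over all IRF4 peaks. Foxp3 peaks with IRF4 and without BATF were called higher in 27.9% and lower in 8.54%, and IRF4 peaks without Foxp3 in 13.5% and 8.31%. The share of lower calls at triple sites was thus near that of all IRF4 peaks.

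The IRF4 differences at the named Treg genes were in the direction of BATF. At the Ctla4 site IRF4 was 285, 295, 263 and 281 in Treg libraries and 164, 191, 74.9 and 112 in Tconv libraries (log2 difference 1.13 ± 0.24, adjusted p = 0.00121). At the Ikzf2 site it was 279, 309, 288 and 264 in Treg and 87.2, 86.3, 93.8 and 72 in Tconv libraries (log2 difference 1.74 ± 0.19, adjusted p = 1.09e-06). Both pairs of groups stood apart without overlap. At a site 28482 bp from Il1r2, which encodes a decoy receptor for IL-1 (chr1:40055810-40056210), IRF4 was 50.7, 74.6, 68.4 and 94.6 in Treg libraries and 1.62, 1.39, 5.41 and 2.29 in Tconv libraries, the low values resting on few reads.

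BATF and IRF4 calls went together site by site. Of all triple sites, 37.1% had more BATF and 20.7% more IRF4 in Treg cells, 4.39% less BATF and 8.59% less IRF4. Of the 443 sites with more IRF4 in Treg cells, 430 (97.1%) also had more BATF there, which is 54.2% of the 794 sites higher for BATF. Both factors were lower in Treg cells at 56 sites (59.6% of the 94 lower for BATF and 30.4% of the 184 lower for IRF4), and 1 site was called in opposite directions. Over the 2143 sites Pearson's r between the 2 log2 differences was 0.86, as a description; the points share the same libraries in each table.

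**Figure D2:**
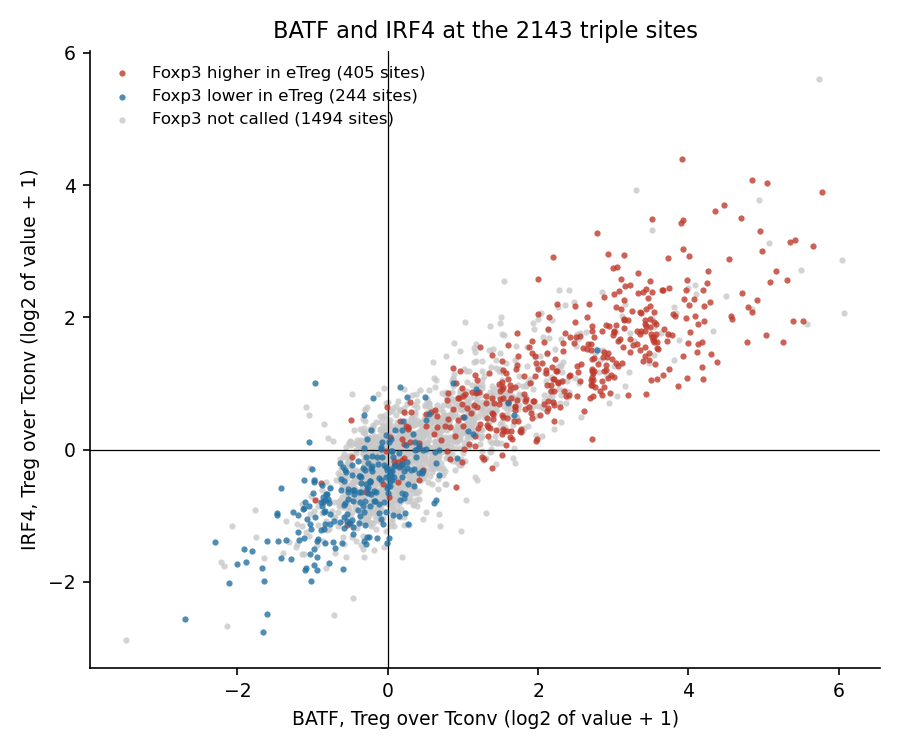
Each point is 1 of the 2143 triple sites; x axis, BATF difference, Treg over Tconv; y axis, IRF4 difference, Treg over Tconv, both on log2(value + 1). Colours give the Foxp3 call in eTreg over cTreg. The 405 sites with more Foxp3 in eTreg lie mostly at upper right. Of them 359 had more BATF in Treg, a call made at 37.1% of all triple sites. The 244 with less Foxp3 in eTreg lie mostly near or below 0.

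Sites with less BATF and IRF4 in Treg than in Tconv cells included sites inside Atp9b and Gramd3. Atp9b encodes a P4-type ATPase. At chr18:80738212-80738612, inside the gene, BATF was 62.2 and 42.9 in Treg and 132 and 204 in Tconv libraries (log2 difference -1.65 ± 0.27, adjusted p = 0.000263). IRF4 there was 6.45, 9.52, 10.7 and 5.97 in Treg and 29.1, 28.5, 40.6 and 41.1 in Tconv libraries (log2 difference -1.98, adjusted p = 0.00026). Inside Gramd3 (chr18:56412826-56413226) BATF was 45.6 and 36.1 in Treg and 150 and 214 in Tconv libraries (log2 difference -2.11, adjusted p = 2.18e-05). At a site with no gene within 100000 bp (chr4:10770038-10770438) IRF4 was 10.1, 12.7, 4.27 and 11.9 in Treg libraries and 71.1, 69.6, 50.5 and 81.1 in Tconv libraries (log2 difference -2.75 ± 0.32, adjusted p = 2.07e-06). The Treg and Tconv libraries did not overlap at any of these 3 sites. Over the 94 sites lower for BATF the median value was 49.0 in Treg and 105.6 in Tconv cells.

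Without BATF, Foxp3 was lower at 154 triple sites (7.19%) and higher at 9 (0.420%), against 3.91% lower and 0.547% higher over all 6396 Foxp3 peaks. Foxp3 peaks with BATF and without IRF4 were called lower in 0.959%, those with IRF4 and without BATF in 6.03% and those with neither in 2.16%. The median log2 difference was -0.03 over triple sites and 0.05 over all Foxp3 peaks. The count of lower sites fell to 72 without WT Treg library 2 and to 80 without WT Treg library 1, and was 241 without Batf KO library 1. The sites with less Foxp3 had a median Foxp3 value of 13.0 in Batf KO and 50.8 in WT Treg cells, in the same libraries that gave the calls.

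Nrp1, which encodes the Treg surface protein neuropilin-1, had the clearest pair of sites. At chr8:128549726-128550126, 44250 bp from the gene, Foxp3 was 6.1 and 9.01 in Batf KO libraries and 103 and 134 in WT Treg libraries (log2 difference -3.81 ± 0.28, adjusted p = 3.61e-09). At chr8:128547360-128547760 it was 1.02 and 2.57 in Batf KO libraries, from 1 and 2 reads, and 36.4 and 37.6 in WT Treg libraries. Batf KO libraries lay below WT libraries at both sites.

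Other sites called lower in Batf KO cells, each also when any 1 library of these 2 groups was left out, had the same order of libraries. Ikzf2 had 26.4 and 11.6 in Batf KO and 96.1 and 87.7 in WT Treg libraries at the site given above (log2 difference -2.32 ± 0.31, adjusted p = 2.74e-05). Tox, a high-mobility-group nuclear protein of T cells, had 18.3 and 7.72 in Batf KO and 100 and 96.9 in WT Treg libraries at chr4:6930682-6931082, inside the gene (log2 difference -2.94 ± 0.38, adjusted p = 2.3e-05). A site 61780 bp from Ankrd46 (chr15:36415488-36415888) had 10.2 and 7.72 in Batf KO and 157 and 155 in WT Treg libraries (log2 difference -3.99 ± 0.30, adjusted p = 3.61e-09). In these 3 sites no Batf KO library reached a WT library. Inside Fam185a (chr5:21438443-21438843) Foxp3 was 5.08 and 0 in Batf KO libraries, the first from 5 reads, and 47.5 and 71 in WT Treg libraries.

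The site inside Foxp3 and the Ctla4 site were not called in Batf KO cells. Foxp3 at its own gene was 82.3 and 117 in Batf KO and 142 and 144 in WT Treg libraries (log2 difference -0.53, adjusted p = 0.331). At Ctla4 it was 41.7 and 29.6 in Batf KO and 54.6 and 89.4 in WT Treg libraries (log2 difference -0.97 ± 0.31, adjusted p = 0.0765), but passed without Batf KO library 1 (adjusted p = 0.019), with edgeR on recovered reads (0.0281) and with a pseudocount of 5 (0.0498). At both sites the Batf KO libraries lay below the WT libraries, but neither site passed the limma test on all libraries. How many of all Foxp3 peaks show this order was not counted, so the order is not read as a loss of Foxp3.

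Few sites had more Foxp3 in Batf KO cells. Near Rtkn2 (chr10:68066208-68066608) Foxp3 was 95.5 and 90.1 in Batf KO and 40.4 and 38.4 in WT Treg libraries (log2 difference 1.21 ± 0.28, adjusted p = 0.01). Inside Cfap54 (chr10:93041915-93042315) it was 73.2 and 59.2 in Batf KO and 29.3 and 27.6 in WT Treg libraries (log2 difference 1.18, adjusted p = 0.01). Batf KO libraries lay above WT libraries at both sites. Both calls were lost without WT Treg library 1 (adjusted p = 0.0702 at Rtkn2 and 0.0628 at Cfap54) and without WT Treg library 2 (0.0934 and 0.0906), and no triple site was called higher without WT Treg library 1 or without WT Treg library 2, against 22 without Batf KO library 1. The count was 1 with quantile normalisation, 3 with no trend of the spread and 4 with the 4 libraries of these 2 groups alone.

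Between Treg subsets, Foxp3 was higher in eTreg than in cTreg cells at 405 triple sites (18.9%) and lower at 244 (11.4%), against 15.0% higher and 10.8% lower over all Foxp3 peaks. Foxp3 peaks with BATF and without IRF4 were called higher in 9.17% and lower in 16.6%, those with IRF4 and without BATF in 25.1% and 12.3%, and those with neither in 12.6% and 8.19%. The median Foxp3 value at the 405 sites was 45.8 in eTreg and 14.1 in cTreg cells, and at the 244 sites 23.6 in eTreg and 59.9 in cTreg cells. The higher count was 245 without eTreg library 2, and the lower count was 143 without cTreg library 2, 144 without eTreg library 1 and 162 without eTreg library 2.

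Sites with more Foxp3 in eTreg cells included some with less in Batf KO cells. At the first Nrp1 site Foxp3 was 160 and 176 in eTreg and 22.6 and 18.5 in cTreg libraries (log2 difference 2.97 ± 0.28, adjusted p = 7.63e-08). At the Tox site it was 44.3 and 75 in eTreg and 9.32 and 5.19 in cTreg libraries (log2 difference 2.88, adjusted p = 6.58e-06). At a site inside Nfil3 (chr13:52976391-52976791), a bZIP repressor gene, it was 35.5 and 47.3 in eTreg and 4 and 2.97 in cTreg libraries, the cTreg values resting on 3 and 4 reads. At a site 19894 bp from Maf (chr8:115726788-115727188), a bZIP factor of effector T cells, it was 49.4 and 50.8 in eTreg and 2.66 and 2.22 in cTreg libraries, from 2 and 3 cTreg reads. All eTreg libraries of these sites exceeded the cTreg libraries. At the Ikzf2 site Foxp3 was 73.5 and 108 in eTreg and 47.9 and 43.7 in cTreg libraries (log2 difference 0.94 ± 0.31, adjusted p = 0.026), a call lost without eTreg library 2 (adjusted p = 0.291), cTreg library 1 (0.0734) or cTreg library 2 (0.121).

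Sites with less Foxp3 in eTreg cells included those nearest to Tgfbr2, Satb1, Foxp1 and Atp9b. Tgfbr2 encodes a receptor subunit for TGF-beta, and at chr9:116187421-116187821, 12058 bp from it, Foxp3 was 8.87 and 12.1 in eTreg and 65.3 and 115 in cTreg libraries (log2 difference -2.95 ± 0.27, adjusted p = 5.51e-08). Satb1 encodes a chromatin organiser, and 70640 bp from it (chr17:51903930-51904330) Foxp3 was 15.2 and 12.7 in eTreg and 90.6 and 121 in cTreg libraries (log2 difference -2.83 ± 0.27, adjusted p = 7.63e-08). At the Satb1 site Foxp3 was 237 and 139 in Batf KO and 144 and 136 in WT Treg libraries, groups that overlap (log2 difference 0.37, adjusted p = 0.525). Foxp1 encodes another forkhead factor, known for its role in naive T cells, and at chr6:99388939-99389339 inside it Foxp3 was 21.5 and 38.1 in eTreg and 170 and 209 in cTreg libraries (log2 difference -2.68 ± 0.27, adjusted p = 1.2e-07). A second Foxp1 site (chr6:99050482-99050882) went the other way, with Foxp3 at 95 and 145 in eTreg and 22.6 and 44.5 in cTreg libraries (log2 difference 1.85, adjusted p = 3.5e-05) and BATF at 340 and 339 in Treg and 31.4 and 35 in Tconv libraries. At the Atp9b site Foxp3 was 8.87 and 8.07 in eTreg and 47.9 and 54.1 in cTreg libraries (log2 difference -2.46, adjusted p = 2.72e-06). The eTreg and cTreg libraries did not overlap at any of these 5 sites, all of them called in this comparison.

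BATF in R397W Treg cells could be read at the 1324 triple sites (61.8%) that also have a peak in the second BATF table. It was lower than in control Treg cells at 236 of them (17.8%) and higher at 19 (1.44%), against 8.04% and 0.612% over the 9973 peaks of that table. The median log2 difference was -0.27 over these sites and -0.02 over all peaks. Without control column 2, which has the fewest reads, 51 sites were lower; the count was 94 without R397W library 1 and 151 without R397W library 2. It was 154 with quantile normalisation and 22 with no trend of the spread in the fit. Over the 236 sites the median BATF value was 35.2 in R397W and 106.7 in control cells.

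Lower BATF in R397W cells was called at sites already named and at 1 near Snx13. At the Nrp1 site BATF was 94 and 67.9 in R397W and 285 and 349 in control libraries (log2 difference -1.97 ± 0.24, adjusted p = 0.000557). At the Tox site it was 5.13 and 7.62 in R397W libraries, the first from 3 reads, and 133 and 100 in control libraries. At a site 24463 bp from Snx13 (chr12:35021284-35021684), a sorting nexin gene, it was 12 and 24.3 in R397W and 116 and 152 in control libraries (log2 difference -2.88 ± 0.38, adjusted p = 0.000936). R397W libraries lay below control libraries at all 3 sites, and leaving out any 1 library ended none of these calls; with no trend the Nrp1 call was lost (adjusted p = 0.0563). At the site inside Foxp3, BATF was 42.7 and 83.9 in R397W and 105 and 96.8 in control libraries, which did not pass the test (log2 difference -0.74, adjusted p = 0.177).

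More BATF in R397W cells was called at few sites, 10 of the 19 being sites with less BATF in Treg than in Tconv cells. Of all 1324 sites with a second-table peak, 5.51% had less BATF in Treg than in Tconv cells. At a site inside Lrrfip1 (chr1:91095282-91095682) BATF was 97.5 and 92.2 in R397W and 43.2 and 38 in control libraries (log2 difference 1.21, adjusted p = 0.0203). In the BATF table of WT cells it was 76.7 and 83.6 in Treg and 158 and 197 in Tconv libraries. The R397W libraries exceeded the controls, but the call was lost without R397W library 1 (adjusted p = 0.125), R397W library 2 (0.0919) or control column 2 (0.0895). Without R397W library 1 no site was called higher, and 3 were without R397W library 2 and 4 without control column 2. The count was 1 with no trend and 35 with all 8 libraries of the table in the fit.

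**Figure D3:**
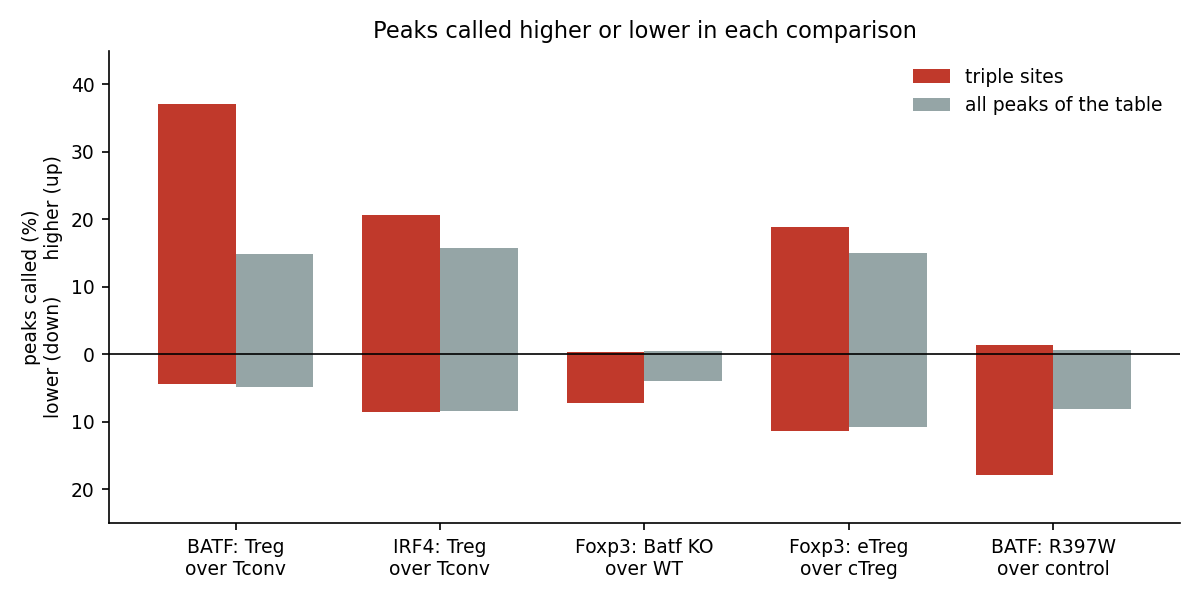
Percent of peaks called higher (above 0) or lower (below 0) in each comparison, for triple sites and for all peaks of the table. The widest gaps to all peaks are more BATF in Treg cells (37.1% against 14.9%) and less BATF in R397W cells (17.8% against 8.04%). Triple sites were picked through Foxp3 peaks of Treg libraries, so all peaks are not a neutral baseline for Treg over Tconv.

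The 5 comparisons share no libraries, so their calls can be set side by side. Of all 2143 triple sites, 37.1% had more BATF and 20.7% more IRF4 in Treg cells, and 18.9% had more Foxp3 in eTreg cells. Of the 154 sites with less Foxp3 in Batf KO cells, 147 (95.5%) had more BATF in Treg than in Tconv cells, which is 18.5% of all 794 such sites. More Foxp3 in eTreg cells was called at 133 of the 154 (86.4%, and 32.8% of the 405) and less at 0; these 2 comparisons come from 1 fit. Of the 405 sites with more Foxp3 in eTreg cells, 359 (88.6%) had more BATF and 266 (65.7%) more IRF4 in Treg than in Tconv cells. Of the 244 with less, 10 had more BATF, 53 (21.7%) less BATF and 71 (29.1%) less IRF4. Less BATF was called at 4.39% and less IRF4 at 8.59% of all triple sites. The sites with less BATF in R397W cells gave 225 of 236 (95.3%) with more BATF in Treg cells, 178 (75.4%) with more Foxp3 in eTreg cells and 95 (40.3%) with less Foxp3 in Batf KO cells. Over the 1324 sites with a second-table peak, these shares were 39.8%, 24.0% and 10.2%.

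A set of 264 triple sites (12.3%) had more BATF and IRF4 in Treg cells and more Foxp3 in eTreg cells. Of these, 110 also had less Foxp3 in Batf KO cells, a call made at 7.19% of all triple sites. At the other end, 32 sites had less BATF, less IRF4 and less Foxp3 in the same 3 comparisons. The largest class was of sites with no call: 927 (43.3%) were called in none of the 4 comparisons that cover every site. In those 927 the median BATF value was 114.1 in Treg and 103.9 in Tconv cells, the median IRF4 value 23.8 in Treg and 25.5 in Tconv cells, and the median Foxp3 value 36.5 in eTreg and 40.1 in cTreg cells. Over all triple sites the log2 differences of BATF (Treg over Tconv) and Foxp3 (eTreg over cTreg) had a Pearson's r of 0.73, and BATF (Treg over Tconv) and BATF (R397W over control) one of -0.78 over 1324 sites, given as descriptions.

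The strongest Foxp3 sites were not called for Foxp3. Slmap, which encodes a sarcolemma-associated protein, had the highest mean Foxp3 value, with 624 and 570 in Batf KO and 661 and 507 in WT Treg libraries (chr14:26534836-26535236). Its BATF value was 136 and 140 in Treg and 150 and 120 in Tconv libraries, so the groups overlapped for both factors. Inside Pde3b (chr7:114479780-114480180), a cAMP phosphodiesterase gene that Treg cells are known to keep low, Foxp3 was 496 and 479 in Batf KO and 497 and 487 in WT Treg libraries, and 181 and 213 in eTreg and 169 and 261 in cTreg libraries. The sites of Pde7a, Pde4b and Rgs1, also among the 5 strongest, were also not called in either Foxp3 comparison. BATF was higher in Treg than in Tconv cells at the Pde3b site (log2 difference 1.15, adjusted p = 0.000378) and the Rgs1 site (0.76, adjusted p = 0.0351). IRF4 was higher in Treg cells at the Pde4b site (log2 difference 0.67, adjusted p = 0.0356). Neither factor was called at the Slmap and Pde7a sites. A site inside Tcf7 (chr11:52265573-52265973), the gene of the naive T cell factor TCF-1, was called in no comparison. Foxp3 there was 62.1 and 61.1 in eTreg and 61.3 and 64.5 in cTreg libraries.

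**Figure D4:**
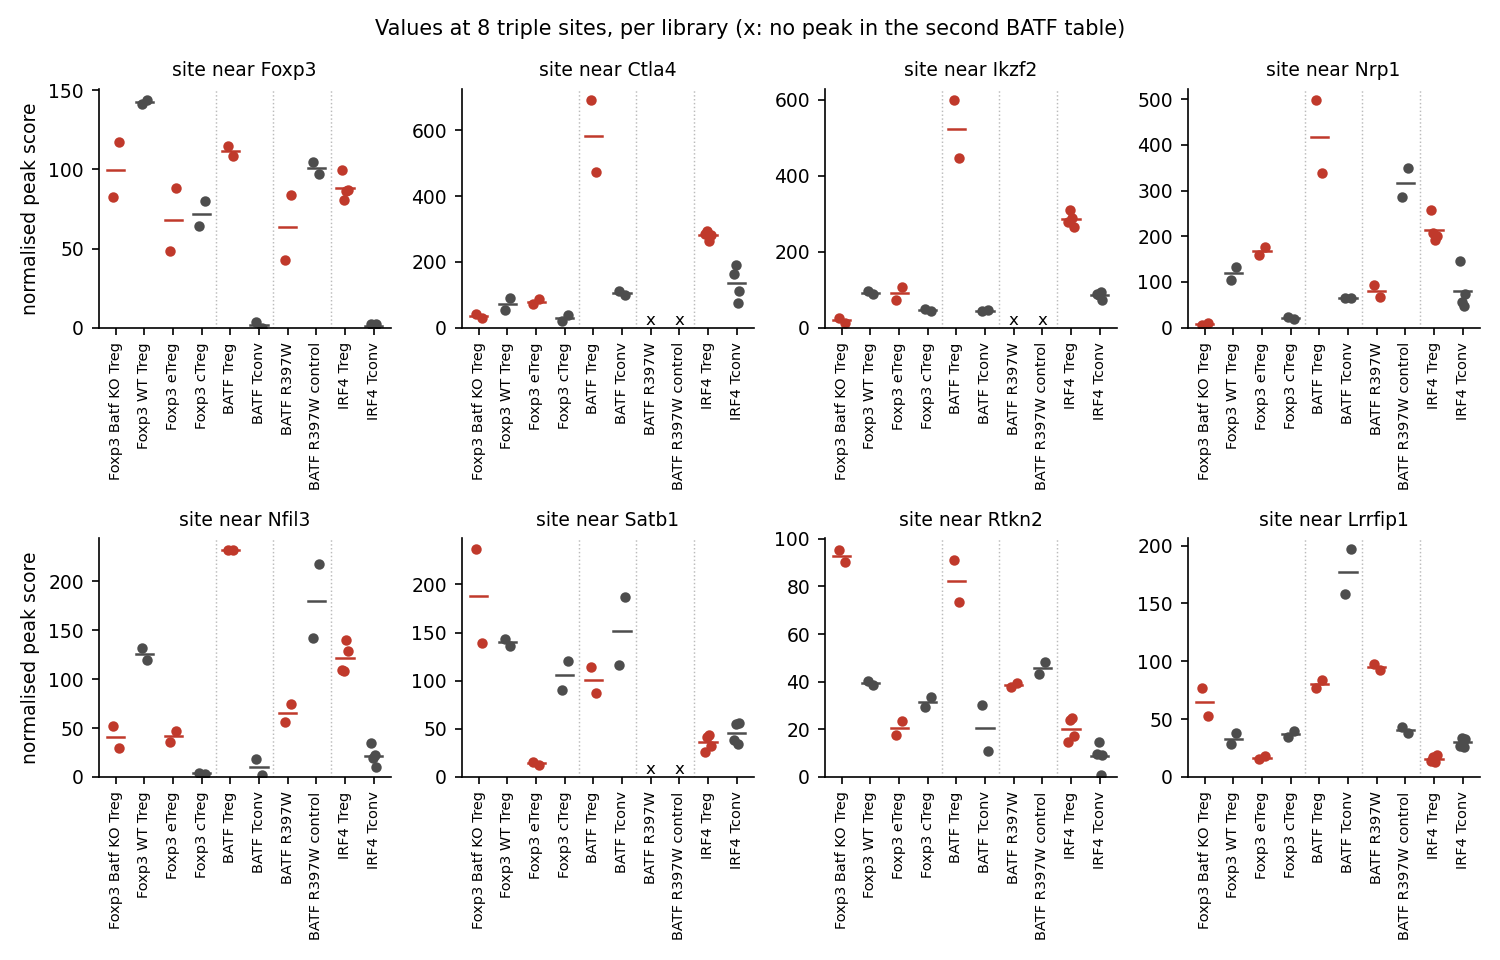
Normalised peak score (y axis) at 8 triple sites, 1 point per library and a bar at the group mean; groups on the x axis, BATF Treg and Tconv from the first table and R397W and control from the second. The Foxp3 site has BATF of 115 and 108 in Treg against 3.48 and 0 in Tconv libraries, the Nrp1 site has Foxp3 of 6.1 and 9.01 in Batf KO against 103 and 134 in WT Treg libraries, and the Satb1 site has Foxp3 of 15.2 and 12.7 in eTreg against 90.6 and 121 in cTreg libraries.

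Sites were then counted over gene lists, by nearest gene. The core Treg genes (15 in the list) had 10 triple sites in 6 genes. BATF was higher in Treg cells at 8 of the 10 and IRF4 at 7, against 37.1% and 20.7% of all triple sites, and neither was lower at any. Foxp3 was lower in Batf KO cells at 3, the Ikzf2 site and both Nrp1 sites, and higher in eTreg cells at 5, against 7.19% and 18.9% of all triple sites. The median log2 differences were 2.53 for BATF, 1.33 for IRF4, -0.44 for Foxp3 in Batf KO and 0.47 for Foxp3 in eTreg cells. The list was chosen with results of these data known, so its direction is not independent evidence.

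The effector Treg genes (25) had 18 sites in 12 genes, with BATF higher at 13 and IRF4 at 10, where all triple sites gave 37.1% and 20.7%. Foxp3 was higher in eTreg cells at 11 and lower at 0 (18.9% and 11.4% of all triple sites), and in Batf KO cells it was lower at the Maf and Nfil3 sites and higher at 1, near Ccr2. The Maf call in Batf KO cells was lost without WT Treg library 2 (adjusted p = 0.126), and the Nfil3 call without WT Treg library 1 (0.0691). The Ccr2 call was lost without Batf KO library 1 (adjusted p = 0.122), WT Treg library 1 (0.0848) or WT Treg library 2 (0.186). BATF was lower in R397W cells at 3 of the 10 sites with a second-table peak, where all triple sites with such a peak gave 17.8%. With so few sites, this count is not read as a trait of these genes.

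The genes of central and naive T cells (15) had the most triple sites, 29 in 12 genes, and these moved both ways. Foxp3 was higher in eTreg cells at 6 of the 29 and lower at 11, against 18.9% and 11.4% of all triple sites. BATF was higher in Treg cells at 11 of the 29 and lower at 1, against 37.1% and 4.39%. Bach2, a repressor that keeps T cells in a resting state, showed the spread among sites nearest to 1 gene. The first site below lies 2141 bp outside the gene and the second inside it. At chr4:32588250-32588650 Foxp3 was 11.2 and 12.9 in Batf KO and 89 and 71.8 in WT Treg libraries (log2 difference -2.64, adjusted p = 6e-06), and BATF was 363 and 331 in Treg and 65 and 94.3 in Tconv libraries. At chr4:32387837-32388237 Foxp3 was 36.7 and 28.3 in eTreg and 97.2 and 96.4 in cTreg libraries (log2 difference -1.56, adjusted p = 0.00013), and BATF was 94.3 and 132 in Treg and 120 and 106 in Tconv libraries. The first site thus differed in the KO comparison without overlap, and at the second the BATF groups overlapped. Within Ets1, a gene for an ETS factor of resting lymphocytes, Foxp3 was 3.05 and 10.3 in Batf KO and 66.7 and 45.9 in WT Treg libraries at chr9:32661614-32662014, the first KO value resting on 3 reads.

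The 3 remaining lists of T cell genes are given by their counts, to be read against the same shares of all triple sites. The genes of AP-1 and IRF factors had 7 sites in 5 of 14 genes, with BATF higher in Treg cells at 2, nearest to Fos and Fosb; the Fos call was lost without Treg library 2 (adjusted p = 0.0551) or Tconv library 1 (0.0666). T cell receptor signalling genes had 17 sites in 10 of 24 genes, with BATF higher at 7, IRF4 higher at 4, Foxp3 higher in eTreg cells at 1 and lower at 3, and Foxp3 called in Batf KO cells at 0. T helper genes had 9 sites in 5 of 16 genes, with BATF higher at 5, IRF4 higher at 4 and lower at 1, and Foxp3 higher in eTreg cells at 3 and lower in Batf KO cells at 1. Marker genes of B cells and of myeloid cells had 0 triple sites, and those of CD8 T and NK cells had 2, near Gzmb and Klrb1c. The Gzmb site was called in no comparison. At the Klrb1c site (chr6:128796304-128796704) Foxp3 was 57.0 and 68.1 in eTreg and 26.6 and 20.8 in cTreg libraries (log2 difference 1.37, adjusted p = 0.000416). BATF there was 79.8 and 66.6 in Treg and 33.7 and 35.7 in Tconv libraries (log2 difference 1.05, adjusted p = 0.0264), a call lost without Treg library 1 (0.164), Treg library 2 (0.0648) or Tconv library 1 (0.061). The groups did not overlap for either factor, and the part of other cell types in these results was not tested. The genes Il10, Ccr8, Prdm1, Il1rl1 and Lef1, also looked up, had no triple site as nearest gene.

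Triple sites on promoters were called less often in most comparisons than those elsewhere, as counts that were not tested against each other. A RefSeq promoter window overlapped 312 of the 2070 triple sites outside chromosome 18 (15.1%), against 4.00% of the other Foxp3 peaks. More BATF in Treg cells was called at 8.97% of the 312 and at 41.5% of the sites off windows. More Foxp3 in eTreg cells was called at 2.24% on windows and 21.4% off them, and less Foxp3 in eTreg cells at 3.53% on and 12.9% off. Less Foxp3 in Batf KO cells was called at 0.321% on and 8.19% off. More IRF4 in Treg cells was called at 2.24% on and 23.5% off, and less IRF4 at 12.5% on and 8.02% off. Of the 312, 228 (73.1%) were called in no comparison in which they had a peak, a share that was not counted for the sites off windows. The levels were not uniformly lower: the median in WT Treg cells was 149.4 on and 102.6 off windows for BATF, 38.5 and 52.2 for Foxp3, and 22.3 and 28.3 for IRF4.

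**Figure D5:**
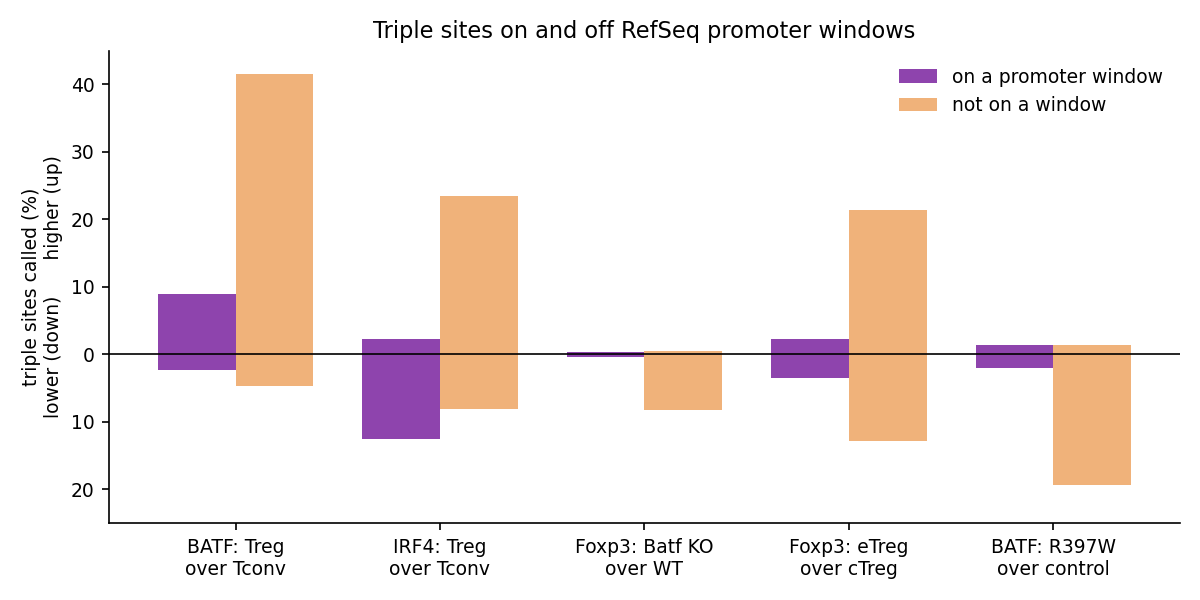
Percent of triple sites called in each comparison and direction (y axis), on RefSeq promoter windows (312 sites) and off them (1758 sites; 145 and 1126 for R397W), outside chromosome 18. More BATF in Treg cells was called at 8.97% on windows and 41.5% off them.

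Motif shares in the windows are given side by side, with no test. The AP-1 motif TGANTCA was found in 6.09% of the 312 windows, in 7.81% of all 32817 RefSeq windows and in 8.43% of the 166 windows at other Foxp3 peaks. The forkhead motif TGTTTAC was found in 7.69%, 3.65% and 12.0% in that order, and the IRF motif GAAANNGAAA in 3.85%, 3.43% and 3.01%, all on both strands. The spaced and the adjacent composite of AP-1 and IRF letters, both of which contain the AP-1 motif, were in 0 of the 312 windows and in 0.119% and 0.125% of all windows. The AP-1 letters were in 4 of the 7 windows where Foxp3 was higher in eTreg cells, in 2 of the 11 where it was lower and in 5 of the 28 where BATF was higher in Treg cells.

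Tigit encodes an inhibitory receptor of effector Treg cells. Foxp3 at its start was 209 and 250 in eTreg and 59.9 and 77.1 in cTreg libraries (log2 difference 1.73 ± 0.26, adjusted p = 2.21e-05), and BATF was 257 and 193 in Treg and 101 and 131 in Tconv libraries (log2 difference 0.95, adjusted p = 0.00339), the BATF call being lost without Treg library 1 (0.0658) and with no trend (0.0565). Cxcl10 encodes a chemokine induced by interferon, and Foxp3 at its start was 35.5 and 27.1 in eTreg and 6.66 and 11.9 in cTreg libraries (log2 difference 1.69 ± 0.33, adjusted p = 0.000399). Neither site had overlapping eTreg and cTreg libraries. In the other direction, a site on the Gm29952 window (chr12:80273138-80273538) lay 12718 bp from Actn1, an actinin gene. Foxp3 there was 27.9 and 30.6 in eTreg and 83.9 and 91.2 in cTreg libraries (log2 difference -1.55 ± 0.24, adjusted p = 4.24e-05). BATF there was 69.5 and 84.7 in Treg and 149 and 189 in Tconv libraries (log2 difference -1.12, adjusted p = 0.00153), again without overlap. This was also the 1 promoter site called higher for Foxp3 in Batf KO cells. Its values were 146 and 122 in Batf KO and 68.8 and 67.7 in WT Treg libraries (log2 difference 0.96, adjusted p = 0.0194). The limits given above for calls in that direction apply here too.

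The site on the Dclk1 window had BATF of 87.1 and 77.9 in Treg and 25.6 and 30.7 in Tconv libraries. In R397W libraries BATF was 23.9 and 27, against 55.5 and 100 in control libraries (log2 difference -1.52, adjusted p = 0.0219), a call lost without R397W library 1 (adjusted p = 0.0935), R397W library 2 (0.0609) or control column 2 (0.371). The site on the Gm15133 window, inside Trim12a, was the 1 promoter site with less Foxp3 in Batf KO cells. Foxp3 there was 29.5 and 16.7 in Batf KO and 69.8 and 43.4 in WT Treg libraries (log2 difference -1.27 ± 0.33, adjusted p = 0.0248). That call was lost without Batf KO library 2 (0.186) or WT Treg library 1 (0.296), although the groups did not overlap. Map1lc3b encodes the autophagy protein LC3B, and its site was called in no comparison: Foxp3 was 357 and 418 in Batf KO and 411 and 323 in WT Treg libraries, and BATF was 174 and 184 in Treg and 201 and 163 in Tconv libraries.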

How the data were processed

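ChIP-seq of Foxp3, BATF and IRF4 gave 4 tables of normalised peak scores, a unit of signal that the authors deposited, 1 peak list per table. Reads were aligned to mm10 and handled with DiffBind 3.12.0, Bowtie2 2.4.1, edgeR 3.38.4 and MACS2 2.2.7.1, per the submitters' processing notes, which give no roles or settings. The labels name anti-BATF clone D7C5 and an in-house anti-Foxp3 antibody, and no IRF4 antibody is named. Whether the 4 peak lists were called on pooled libraries is not given in the sources used here. The 2 BATF tables were normalised separately, and levels are not set across them. The R397W control columns match their group but not a replicate number, and are called column 1 and 2.

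A site's BATF or IRF4 peak was the overlapping peak with the largest overlap. limma 3.58.1 in R 4.3.3 (trend of the spread, Benjamini-Hochberg over all peaks of a table, no filter) was run on log2(value + 1), with 1 fit for the 8 Foxp3 libraries. Deposited values were whole multiples of 1 step per library within 0.01 reads, so edgeR 4.0.16 (quasi-likelihood, TMM) was run on the recovered reads as an alternative. The fits were tested on simulated data. Overlaps and summaries used Python 3.11.15 and pandas 2.3.3. A site's gene was the protein-coding gene whose body lay nearest, at most 100000 bp away, in the RefSeq table of GRCm38.p6, the assembly of mm10. Named sites were the 3 called sites with the largest difference per comparison and direction at or above the median level, the strongest site of each of 18 chosen genes, the 5 strongest Foxp3 sites and the 5 genes with most sites; list and promoter sites beyond these were chosen after their values were seen. The members and gene lists were chosen with earlier results of these data known. A motif search under all peaks could not be run without a genome, so promoter windows were searched, and the IRF motif was added to the motifs planned. Replicate numbers did not pair libraries: deviations of same-numbered libraries correlated at 0.03 to 0.14. Results for some genes are not reported here.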

Additional observations from a re-analysis of the deposited data

Results flagged for a closer look

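Among 144 sets of 4 IRF4 libraries, at the named and described sites and for the share of reads, 9 had 1 library far from the other 3 by Dixon's test at the 95% level; chance marks about 1 in 20. In Treg cells these were library 4 at the Tcf7 site (28.1), library 3 at a second Tigit site (chr16:43699175-43699575; 56.6), library 2 at the Slc17a6 site (68.2), library 3 at the Map1lc3b site (6.41) and library 1 at an Ets1 site (chr9:32652121-32652521; 78.3). In Tconv cells they were library 3 at the Ankrd46 site (18.9), library 2 at the Gramd3 site (55.7), library 3 at the Bach2 site chr4:32588250-32588650 (65.9) and library 1 at the Maf site (40.4). Tconv library 3 was the low one at 2 of these 4 sites. The cause was not tested.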

How the results depend on the processing

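No called site value changed direction under any setting run; the median over all peaks for R397W over control did, at 0.13 with quantile normalisation and 0.06 with edgeR, against -0.02. Counts at triple sites that moved by over 1.5 times were: BATF lower in Treg cells, 60 with no trend of the spread (94 reported); Foxp3 higher in Batf KO cells, 1 with quantile normalisation, 3 with no trend and 4 with the 4 libraries of the 2 groups alone (9 reported); BATF lower in R397W cells, 154 with quantile normalisation and 22 with no trend (236 reported); BATF higher in R397W cells, 1 with no trend and 35 with all 8 libraries of the second table (19 reported). The cause was not tested. Quantile normalisation moved the median over all peaks to -0.13, from -0.03, for BATF in Treg over Tconv cells.

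Leaving out 1 library gave 639 to 755 sites higher and 56 to 83 lower for BATF in Treg cells (56 without Tconv library 2), 353 to 440 higher and 139 to 182 lower for IRF4, 0 to 22 higher and 72 to 241 lower for Foxp3 in Batf KO cells, 245 to 329 higher and 143 to 165 lower in eTreg cells, and 0 to 27 higher and 51 to 181 lower for BATF in R397W cells. Over the named and described sites, 177 called values lost the call and 819 held it without 1 library, and 71 lost and 1172 held it under another setting. edgeR on recovered reads called 810 higher and 90 lower for BATF, 435 and 195 for IRF4, 12 and 187 for Foxp3 in Batf KO, 423 and 245 in eTreg and 25 and 231 for BATF in R397W cells.

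With the replicate block, whose numbers did not pair the libraries, the counts were 853 and 133 for BATF, 481 and 208 for IRF4, 11 and 155 in Batf KO and 401 and 257 in eTreg cells; R397W controls share no numbers with the R397W libraries. Only libraries of the 2 groups compared were left out, so the other Foxp3 libraries stayed in each Foxp3 fit. Most groups had 2 libraries, and the shallowest library had 144319 reads in peaks, which limits the precision of its values.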
